A study of Oryza sativa Japonica Group with 18 samples.

Results

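The response of wild-type (WT) rice leaves to cold was taken from 6 of the 18 libraries of a study of OsERF096, a rice gene named for the ethylene response factors, which are transcription factors. It compares 3 WT libraries from normal growth (WT control) with 3 WT libraries from leaves kept for 12 h at 4 °C (WT cold). The plants were Oryza sativa of the Japonica group, carried no transgene, and were grown to the 3-leaf stage in a culture room with a 14 h day and a 10 h night. The other 12 libraries came from OsERF096 overexpression (OX) and RNA interference (RNAi) plants in the same conditions, with 3 libraries in each group. They entered the fit that estimates the spread between libraries. The labels do not name the cultivar, the promoter of either construct or the number of independent lines. Nor do they tell whether the 3 libraries of each group are separate plants. The p-values therefore rest on library-to-library spread, a part of which may be technical. Expression was given for 38610 genes as FPKM, the fragments mapped to a transcript scaled for its length and for the depth of the library. Of these, 23175 reached 1 FPKM in 3 or more of the 18 libraries and were tested on the log2(FPKM + 1) scale with limma. Calls were made where the p adjusted by the Benjamini-Hochberg method fell below 0.05.

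Rice is a plant of warm climates, and its seedlings are injured at temperatures that temperate cereals tolerate. In plants, chilling is known to raise calcium in the cell within minutes and to induce transcription factors of the CBF/DREB1 family, which bind promoters of protective genes. Growth slows at the same time, and the hormones abscisic acid, jasmonate, ethylene, gibberellin, auxin and cytokinin all take part in that shift. The question this comparison addresses is how leaves without a transgene respond, as the baseline for both transgenic lines.

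The absolute depth of the libraries is unknown, and steps in the low values gave the WT libraries relative depths of 0.896 to 1.37, the median library being at 1. Leaf identity was clear in all 6. RCA, which encodes the activase of the carbon-fixing enzyme Rubisco, stood between 2839.7 and 6773 FPKM, and 4 checked light-harvesting genes averaged between 11.3 and 12.6 on the log2(FPKM + 1) scale. WT control 2 stood apart from its group. Its 4 secondary wall genes, which mark vascular and supporting tissue, averaged 2.03 on that scale, against 5.67 and 5.99 in WT controls 1 and 3 and 4.07 to 4.81 in the cold libraries. In 1393 genes WT control 2 lay on the far side of all 3 cold libraries from the other controls, against 311 genes for WT control 1 and 169 for WT control 3. Results are therefore given with and without it. In such bulk samples, fewer cells of a type and less RNA per cell cannot be told apart. The time of day at freezing is not in the labels, so a part of it in any change below cannot be told apart from cold.

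Cold leaves differed from control leaves in a large part of the genes tested. By limma, the calls were 10595 of 23175 genes (45.7%), of which 3252 were higher (14%) and 7343 lower (31.7%). Without WT control 2 it called 9548 (41.2%), 2634 of them higher (11.4%) and 6914 lower (29.8%). The calls shared by both fits numbered 8582, all in the same direction, or 81.0% of the calls with 3 controls. The groups of 3 did not overlap in 12840 genes (55.4%). The median log2 fold change over all genes tested was -0.22, and the values below stand beside that shift. Scaling libraries by the median ratio of their values moved it to 0.01 and turned the split of calls to 5414 higher and 4858 lower, so the excess of lower calls depends on the scale.

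The increases were the larger changes. Among called genes, 1601 rose and 2892 fell by more than 1 on the log2 scale. Beyond a change of 3, however, 295 genes rose and 60 fell, and beyond 5, 64 rose and none of the genes called fell. At under 1 FPKM in each control and at least 10 FPKM in each cold library stood 62 genes, and only 2 genes showed the reverse (68 and 9 without WT control 2). Genes called higher held 8.25% to 12.1% of the summed FPKM in the control libraries and 27.5% to 29.5% in the cold libraries. Genes called lower went from 28.1% to 36.6% in the controls to 13.5% to 14.8% in the cold. Both sets were chosen by their change in these same libraries, which fixed the direction of these shifts in advance. The direction varied with the expression level over the 6 WT libraries, as the plot of calls by level shows. That holds for the main fit, and the calls by level were not repeated under another scaling. Of genes with a mean of 3 to 10 FPKM, 9.9% were higher and 39.7% lower. Of those with 100 to 300 FPKM, 31.5% were higher and 18% lower. By the chromosome number in the locus ID, the share of genes called higher ranged from 9.24% on chromosome 12 to 17.1% on chromosome 1. The share called lower ranged from 28.1% on chromosome 3 to 37.9% on chromosome 11.

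**Figure D1:**
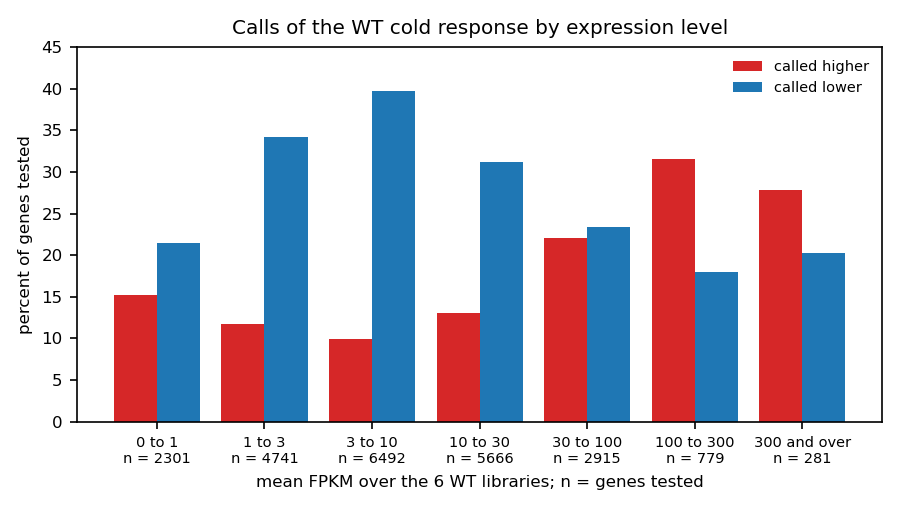
Percent of tested genes called higher (red) or lower (blue) in WT cold against WT control, by mean FPKM over the 6 WT libraries. In the main fit lower calls outnumber higher calls in the bins below 100 FPKM, and higher calls outnumber lower calls above it. The bins were not repeated under another scaling.

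Genes of known function are described here by 59 lists with at least 1 tested member, which hold 293 tested genes in all. Both the member counts and the medians are to be read beside the shares for all genes, 14% higher and 31.7% lower, and the median of -0.22. Of the 105 calls among the genes chosen for naming, 73 held when any 1 of the 6 WT libraries was left out. The other calls are marked where they appear.

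The CBF/DREB1 factors, the transcription factors at the head of the cold response, led the increases. All 7 tested members were higher, with a median log2 fold change of 5.49, and all 7 were higher in each fit that left out 1 WT library. DREB1B stood at 0.556, 0.189 and 11.5 FPKM in WT controls 1, 2 and 3 and at 1456, 1394 and 1683 FPKM in the cold libraries. Its log2 fold change was 9.05 ± 0.65 (SE, adjusted p = 3.87e-08) and 8.42 without WT control 2. The value of WT control 3 was the highest of its group, as it was for 6 of the 7 genes, and still far below every cold library. DREB1A stood at 0.286, 0.454 and 1.41 FPKM before and at 404, 416 and 432 FPKM after cold (log2 fold change 7.98 ± 0.39, adjusted p = 6.73e-10). DREB1H, a neighbour of both in the same gene cluster, went from 0, 0 and 0.989 to 58.6, 64.5 and 88.7 FPKM. The sources used here do not say how reads were split between such close relatives. DREB1C reached 52.4, 56.2 and 43.0 FPKM in the cold, from at most 0.381 in a control. DREB1G reached 42.9, 57.1 and 63.9 FPKM, from at most 0.733. DREB1E reached 22.7, 33.5 and 32.7 FPKM, from at most 0.424. DREB1F was listed at 0 in all 3 controls and at 6.25, 7.83 and 1.46 FPKM in the cold (adjusted p = 0.000117), so no fold is given for it. It was the lowest of the family after cold, and WT cold 3 the lowest of its cold libraries.

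DREB2 factors, known for drought and heat responses, moved apart. DREB2A fell from 3.04, 3.04 and 5.98 to 1.44, 1.04 and 1.19 FPKM (log2 fold change -1.13 ± 0.18, adjusted p = 0.000156). DREB2B was slightly higher at 27.9, 28.9 and 28.7 against 22.3, 25.1 and 20.9 FPKM. Its log2 fold change of 0.32 ± 0.12 (adjusted p = 0.0483) lost the call without any of 5 of the 6 WT libraries, all but WT control 2 (adjusted p up to 0.151).

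**Figure D2:**
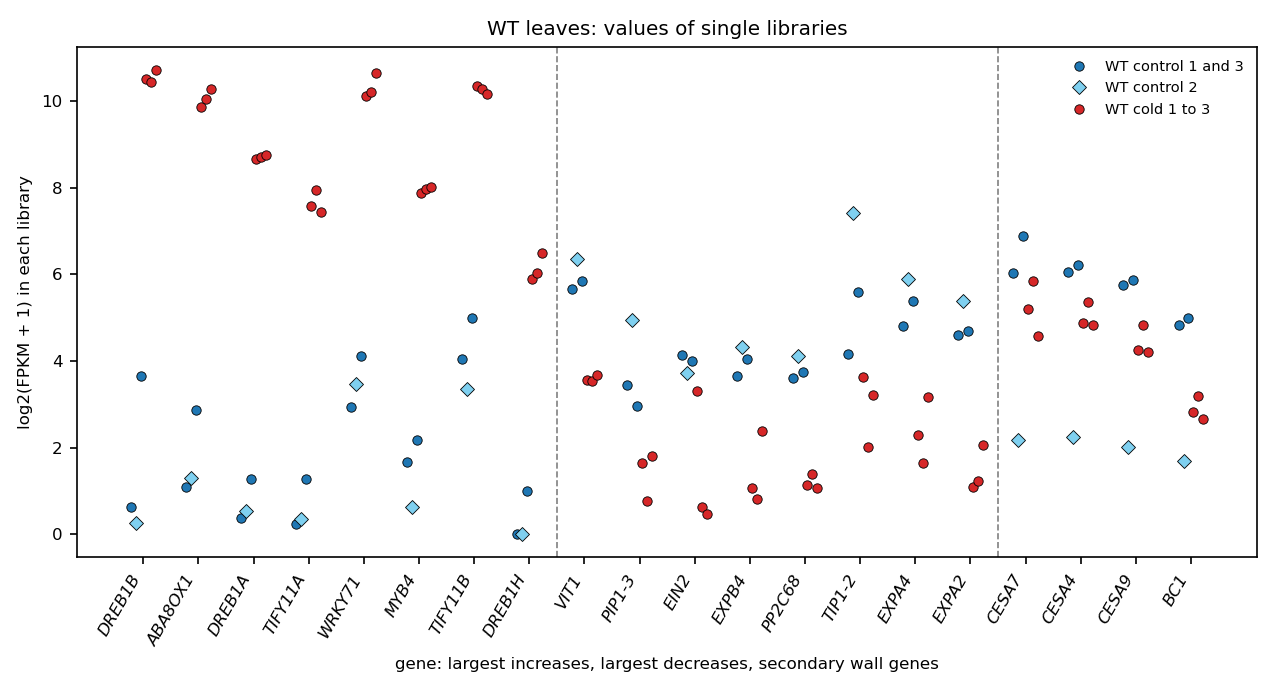
log2(FPKM + 1) in each WT library for the 8 largest increases, the 8 largest decreases among genes with a checked name, and the 4 secondary wall genes. In the first 16 genes cold libraries (red) lie apart from control libraries, which the rule that chose these genes required. WT control 2 (diamonds) lies below all cold libraries in the secondary wall genes, which were not chosen that way.

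Members of other transcription factor families rose with the DREB1 genes. WRKY71 stood at 6.69, 10.2 and 16.4 FPKM before cold and at 1110.3, 1192 and 1608 FPKM after it (log2 fold change 6.82 ± 0.64, adjusted p = 7.54e-07). WRKY76, known in rice as a repressor of defence that aids cold tolerance, stood at 1.97, 0.234 and 1.37 before and at 52.0, 13.5 and 34.0 FPKM after cold. Its cold libraries differed among themselves by several times, yet none overlapped the controls. Of 5 tested WRKY genes, 3 were higher, 1 lower and 1 not called. MYB4, a rice MYB factor known to raise cold tolerance, went from 2.19, 0.557 and 3.48 to 234, 251 and 257 FPKM (log2 fold change 6.46 ± 0.41, adjusted p = 1.01e-08). MYB2 went from 5.64, 3.88 and 4.43 to 61.4, 89.2 and 85.4 FPKM. In the MYB and ICE list, whose ICE genes did not pass the name check, 3 of 5 were higher and 1 lower. The lower call was lost under median-ratio scaling. The stress factor gene NAC6 stood at 89.0, 170.2 and 111 FPKM in the controls and at 1631, 1398 and 1286 FPKM in the cold (log2 fold change 3.58 ± 0.21, adjusted p = 5.31e-09). NAC3 went from 7.55, 10.0 and 8.29 to 106, 127 and 189 FPKM. The 3 listed NAC genes were 2 higher and 1 lower, and that lower call was lost without WT control 2, WT cold 1 or WT cold 2 and under both scalings.

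Single heat shock factor genes rose, while the list moved in both directions with a median log2 fold change of 0.27. HSFA3 stood at 10.8, 23.0 and 14.8 FPKM in the controls and at 260.4, 269 and 231 FPKM in the cold (log2 fold change 3.95 ± 0.23, adjusted p = 5.22e-09). HSFA4B went from 8.9, 6.26 and 7.68 to 21.0, 22.6 and 27.5 FPKM. Of 8 tested heat shock factors 3 were higher, 2 lower and 3 not called, with 1 lower under either scaling or without any WT library other than WT cold 3. The small heat shock protein genes, which hold unfolded proteins in solution, stayed low throughout. HSP23.2 was at 0.0566, 0 and 0 FPKM before and at 2.17, 1.37 and 1.39 FPKM after cold (log2 fold change 1.36 ± 0.18, adjusted p = 2.32e-05). HSP24.1 went from 1.69, 1.25 and 1.92 to 5.52, 5.02 and 4.68 FPKM. In that list 3 of 5 tested genes were higher and none was lower.

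Abscisic acid is a stress hormone whose level is set by synthesis and by breakdown. ABA8OX1, which encodes a hydroxylase that breaks the hormone down, had the next largest increase after DREB1B among genes with a checked name. It stood at 1.14, 1.47 and 6.36 FPKM before cold and at 935, 1054 and 1236 FPKM after it (log2 fold change 8.30 ± 0.54, adjusted p = 1.48e-08). ABA8OX3, for an enzyme of the same kind, went from 0.775, 8.87 and 3.6 to 22.1, 23.3 and 12.9 FPKM (log2 fold change 2.20 ± 0.58, adjusted p = 0.00612). In that list of 4 tested genes the remaining 2 were 1 lower and 1 not called, and the lower call ended without any WT library other than WT control 1. Clade A PP2C phosphatases, which hold abscisic acid signalling off, were lower in 5 of 7 and higher in none, with a median log2 fold change of -0.86. PP2C68 stood at 11.2, 16.3 and 12.5 FPKM in the controls and at 1.2, 1.61 and 1.08 FPKM in the cold (log2 fold change -2.63 ± 0.41, adjusted p = 0.000123). PP2C09 went from 68.5, 61.7 and 58.8 to 23.8, 20.7 and 17.44 FPKM (log2 fold change -1.57 ± 0.29, adjusted p = 0.000488). Without WT control 2, WT cold 1 or WT cold 2, and under median-ratio scaling, 3 of the 7 were lower.

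SAPK kinases, which the phosphatases of clade A inhibit, were 2 higher, 5 lower and 3 not called of 10. SAPK2 stood at 33.2, 34.0 and 36.0 FPKM before and at 146, 145 and 179.6 FPKM after cold (log2 fold change 2.15 ± 0.19, adjusted p = 4.04e-07). The control and cold values of SAPK2 were tight and far apart. SAPK6 was lower at 11.2, 8.42 and 16.0 against 23.4, 34.6 and 19.0 FPKM, a call (adjusted p = 0.0115) lost without WT control 2 (0.0532) or WT cold 2 (0.0597). The counts of this list were 2 higher and 3 lower without WT control 2 or WT cold 2, and 3 and 3 under median-ratio scaling. bZIP23, a transcription factor of abscisic acid signalling, went from 17.02, 9.15 and 14.3 to 49.98, 46.7 and 45.9 FPKM (log2 fold change 1.78 ± 0.22, adjusted p = 1.36e-05). Dehydrins and related proteins, which protect cells that lose water, were 2 higher, 1 lower and 2 not called of 5, and no fit that left out a WT library kept all 3 calls. LIP9 was higher at 47.0, 56.0 and 61.0 against 30.3, 33.6 and 30.02 FPKM. Its call (log2 fold change 0.78 ± 0.30, adjusted p = 0.0468) was lost whichever WT library was left out (adjusted p up to 0.121). RAB21 was lower at 0.808, 0.426 and 0.782 against 1.91, 6.51 and 3.28 FPKM, a call lost without WT control 2 (adjusted p = 0.0916) or WT cold 2 (0.0665).

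Jasmonate signalling is held back by JAZ repressors, whose genes the hormone itself induces. Of 12 tested JAZ genes 7 were higher and none lower, with a median log2 fold change of 1.94, and the counts were the same without any 1 WT library. TIFY11A stood at 0.178, 0.269 and 1.43 FPKM before cold and at 192, 245 and 174 FPKM after it (log2 fold change 7.04 ± 0.38, adjusted p = 2.27e-09). Its neighbour TIFY11B went from 15.5, 9.24 and 30.8 to 1304, 1237 and 1153 FPKM, the highest JAZ level in the cold. All 5 genes of the TIFY11 group were among the higher ones. Genes of jasmonate synthesis and perception were mixed, with 2 of 6 in that list higher and 2 lower, and none higher and 3 lower without WT control 2. AOS1 and AOS2 encode allene oxide synthases, an early step of the pathway. AOS2 stood at 17.8, 2.22 and 9.01 before and at 19.9, 24.08 and 52.4 FPKM after cold, and AOS1 at 3.18, 2.97 and 12.7 before and 19.2, 19.0 and 17.3 after. The call of AOS2 ended without WT control 2 (adjusted p = 0.134) or WT cold 3 (0.109), and that of AOS1 without WT control 1 (0.0644) or 2 (0.0639).

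Ethylene is made from a precursor that ACC synthases produce. ACS2 stood at 0.149, 0.11 and 0.0451 FPKM in the controls and at 13.1, 13.8 and 12.5 FPKM in the cold (log2 fold change 3.68 ± 0.24, adjusted p = 1.44e-08). ACS1, for another such enzyme, was listed at 0 in all 3 controls and at 6.22, 7.81 and 6.84 FPKM in the cold (adjusted p = 2.87e-08). The tested receptors of ethylene, 4 in number, and EIN2, a central protein of its signalling, made up the 5 lower genes of this list. EIN2 stood at 16.6, 12.3 and 14.9 FPKM in the controls and at 8.93, 0.558 and 0.385 FPKM in the cold, so WT cold 1 stood far above the other cold libraries. Its call (log2 fold change -2.48 ± 0.86, adjusted p = 0.0275) was lost without WT control 1 or 3 or WT cold 2 or 3 (adjusted p up to 0.107).

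Of 4 tested gibberellin genes 1 was higher and 1 lower. SLR1, the DELLA repressor of gibberellin signalling, rose from 79.8, 51.5 and 74.2 to 151, 136 and 120.1 FPKM (log2 fold change 0.99 ± 0.15, adjusted p = 9.01e-05). GA20OX2, the semidwarf gene for a late step of gibberellin synthesis, stood at 2.47, 2.07 and 2.47 before and at 0.159, 0.525 and 1.36 FPKM after cold, a call lost without WT cold 1 (adjusted p = 0.0831). The brassinosteroid list was 1 higher and 3 lower of 6, and 2 higher and 1 lower under either scaling. BZR1, the transcription factor of brassinosteroid signalling, went from 6.99, 7.9 and 7.83 to 30.3, 28.5 and 27.4 FPKM (log2 fold change 1.79 ± 0.14, adjusted p = 1.57e-07). D11, for an enzyme of brassinosteroid synthesis, fell from 3.78, 4.59 and 3.43 to 1.42, 1.68 and 1.37 FPKM. Type-A cytokinin response regulators, which cytokinin induces and which damp its signal, were lower in 4 of 6 and higher in none, with a median log2 fold change of -1.56. RR4 fell from 29.3, 52.7 and 51.7 to 7.34, 11.2 and 12.2 FPKM (log2 fold change -1.997 ± 0.28, adjusted p = 4.23e-05), and RR9 from 26.3, 59.8 and 58.4 to 5.8, 13.7 and 14.7 FPKM. Without WT control 2 the calls of RR4 and RR9 remained, and those of RR6 and RR10, named here after their values were seen, did not (adjusted p = 0.0961 and 0.0567). Leaving out WT cold 1 also left 2 of the 6 lower. CKX4, for an oxidase that breaks down cytokinin, was lower at 1.45, 2.12 and 3.35 against 4.46, 9.33 and 5.28 FPKM, a call lost without WT control 2 (adjusted p = 0.0561) or WT cold 1 (0.0575).

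Aux/IAA repressors of auxin signalling had 3 of 17 members higher, 1 lower and 13 not called. IAA23 stood at 7.38, 1.92 and 7.78 FPKM before and at 67.8, 68.7 and 90.3 FPKM after cold (log2 fold change 3.66 ± 0.32, adjusted p = 4.06e-07). IAA6 went from 14.3, 15.6 and 13.4 to 52.0, 54.0 and 78.1 FPKM. Without WT control 2, 3 were higher and 5 lower, and under median-ratio scaling 6 were higher and 1 lower. YUCCA1, for an enzyme of auxin synthesis, was not called (adjusted p = 0.0767). For strigolactone, none of 3 tested genes was called by limma, with D17 of synthesis at an adjusted p of 0.0966 and the receptor gene D14 at 0.177.

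Kinases that pass on calcium and stress signals were higher in 3 of 5 tested members and lower in 1. MAPK5, a stress-induced MAP kinase gene of rice, stood at 9.41, 8.07 and 8.46 FPKM before and at 64.3, 43.5 and 90.4 FPKM after cold (log2 fold change 2.74 ± 0.40, adjusted p = 6.32e-05). CIPK15, a kinase gene known in rice for linking calcium to sugar and oxygen shortage, went from 4.05, 9.25 and 3.1 to 30.1, 24.0 and 20.6 FPKM (log2 fold change 2.102 ± 0.28, adjusted p = 2.81e-05). Of 6 further CIPK and CBL genes 2 were higher and 1 lower, and both higher calls ended without WT control 2. The lower call, of CIPK23, was lost without WT control 1 or 2 or WT cold 1 or 2 (adjusted p up to 0.153). Without WT control 2 another gene of this list was called lower instead. SAP zinc finger proteins are known to raise stress tolerance when overexpressed. SAP11 rose from 68.4, 52.9 and 71.9 to 677, 659 and 838 FPKM (log2 fold change 3.48 ± 0.17, adjusted p = 6.16e-10), and SAP1 from 19.3, 29.6 and 26.5 to 234, 235 and 277 FPKM. The groups of both genes lay far apart, while the other 3 SAP genes were 1 lower and 2 not called. RAN2, a small GTPase gene studied for cold tolerance of rice, fell from 104, 230.1 and 129.9 to 52.6, 60.2 and 63.4 FPKM (log2 fold change -1.30 ± 0.35, adjusted p = 0.00724), and the other 4 tested cold tolerance genes were not called.

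**Figure D3:**
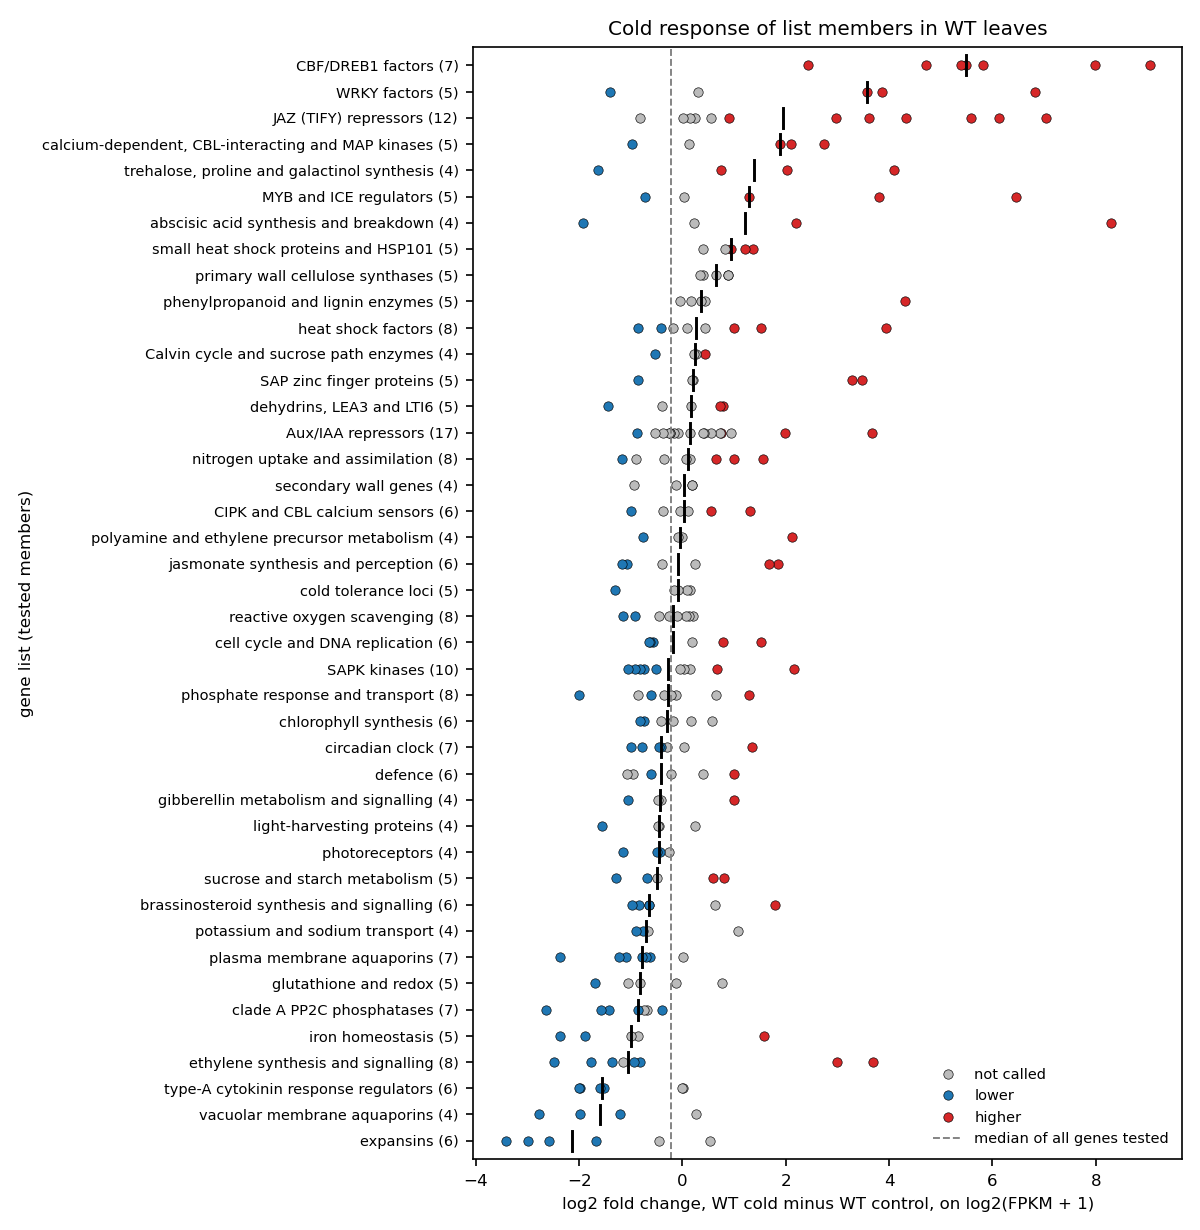
log2 fold change of each tested member (points) in WT cold against WT control, for the 42 lists with at least 4 tested members, ordered by their median (black bars). Red and blue mark called genes, and the dashed line is the median over all genes tested, -0.22. The CBF/DREB1 factors lie highest and the expansins lowest. The lists labelled with ICE and galactinol hold no tested ICE or galactinol gene.

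Among enzymes that make protective solutes, some rose and others fell. TPP1 encodes a phosphatase that forms trehalose, a sugar linked to stress tolerance. It stood at 5.18, 10.1 and 8.2 FPKM before and at 118, 138 and 186 FPKM after cold (log2 fold change 4.09 ± 0.24, adjusted p = 5.13e-09). TPP2, for an enzyme of the same kind, went from 1.45, 2.27 and 2.8 to 13.9, 12.2 and 9.45 FPKM. In the list of trehalose, proline and galactinol synthesis, no galactinol gene passed the name check. Its 4 tested genes were 3 higher and 1 lower in every fit that left out a WT library. ADC1, for arginine decarboxylase of polyamine synthesis, went from 38.6, 67.5 and 47.8 to 183, 249 and 234 FPKM (log2 fold change 2.12 ± 0.22, adjusted p = 2.86e-06). SAMDC, for S-adenosylmethionine decarboxylase of the same pathway, was lower at 268, 291 and 253 against 321, 752 and 410.3 FPKM, a call (adjusted p = 0.0163) lost without WT control 2 (0.0736). Their list was 1 higher and 1 lower of 4, and 1 higher and 2 lower without WT control 2. ZB8, for a phenylalanine ammonia-lyase at the entry to phenolic compounds, stood at 7.55, 0.431 and 7.82 before and at 73.5, 108 and 104 FPKM after cold. Its log2 fold change was 4.32 ± 0.50 (adjusted p = 6.45e-06), or 3.45 without WT control 2, where its level was lowest.

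Sugar genes moved in both directions. The sucrose and starch list was 2 higher and 2 lower of 5, and none higher and 2 lower without WT control 2, and the sugar sensing list was 1 lower and 2 not called of 3. The sucrose transporter gene SUT1, which loads sugar into the phloem, fell from 66.4, 75.6 and 59.6 to 25.7, 25.2 and 30.4 FPKM (log2 fold change -1.28 ± 0.24, adjusted p = 0.000488). SUT2, for a sucrose transporter of the vacuole, fell from 43.5, 39.4 and 41.8 to 21.9, 25.2 and 24.3 FPKM. SNRK1A, the sugar-sensing kinase gene, fell from 30.3, 35.0 and 32.1 to 20.1, 19.1 and 20.8 FPKM (log2 fold change -0.67 ± 0.12, adjusted p = 0.000348). SBE1, for a starch branching enzyme, fell from 44.5, 38.2 and 39.1 to 25.1, 28.5 and 29.7 FPKM, a call lost under median-ratio scaling. The chloroplast triose phosphate transporter gene TPT was higher at 1245, 1208 and 1171 against 955, 764 and 955 FPKM. That call was lost without WT control 2 (adjusted p = 0.092), WT cold 1 or WT cold 2, and under quantile normalization. AMY3D, an alpha-amylase gene, stayed under 2 FPKM in all 6 libraries, and its higher call was lost without any 1 of 5 WT libraries, all but WT cold 3 (adjusted p up to 0.14).

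Aquaporin genes, for water channels, were mostly lower. Of 7 tested channels of the plasma membrane 6 were lower and none higher, with a median log2 fold change of -0.78, and 5 were lower without WT cold 1 and 4 under median-ratio scaling. PIP1-3 fell from 9.83, 29.7 and 6.76 to 2.14, 0.693 and 2.48 FPKM (log2 fold change -2.37 ± 0.61, adjusted p = 0.00561). PIP2-7, the most abundant, stood at 880.3, 1486 and 766 FPKM before and at 333, 426 and 551 FPKM after cold. The groups of PIP2-7 did not overlap, and its call was lost without WT control 2 (adjusted p = 0.0664) or WT cold 1 (0.0654), and under median-ratio scaling. Of 4 vacuolar channels 3 were lower, and 2 without any WT library other than WT control 1. TIP4-1 fell from 348, 382 and 272 to 72.6, 82.1 and 95.7 FPKM (log2 fold change -1.98 ± 0.18, adjusted p = 7.5e-07). TIP1-2 stood at 16.8, 169.9 and 47.3 before and at 11.3, 3.03 and 8.26 FPKM after cold, and this call (adjusted p = 0.0456) was lost without any WT library other than WT control 1 (up to 0.179).

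Expansins loosen the cell wall as cells grow, and they formed the list with the lowest median, -2.13. Of 6 tested genes 4 were lower and none higher, with the same counts without any 1 WT library and under both scalings. EXPA2 stood at 23.23, 40.8 and 24.8 FPKM before and at 1.15, 1.36 and 3.17 FPKM after cold (log2 fold change -3.43 ± 0.64, adjusted p = 0.000557). It had the largest decrease of the genes with a checked name. EXPA4 fell from 26.96, 58.6 and 40.8 to 3.93, 2.11 and 8.0002 FPKM. EXPB4 fell from 11.5, 19.1 and 15.5 to 1.1, 0.749 and 4.23 FPKM. In all of these WT control 2 had the highest control value and WT cold 3 the highest cold value. The cell cycle list was 2 higher and 3 lower of 6, at low levels. CDKB2-1, a mitotic kinase gene, went from 0.69, 0.416 and 0.427 to 2.24, 3.99 and 3.97 FPKM (log2 fold change 1.52 ± 0.24, adjusted p = 0.000126), and the cyclin gene CYCA3-2 from 0.719, 0.188 and 1.08 to 1.78, 2.05 and 1.53 FPKM. The lower calls of this list fell to 1 without WT control 2 and to none without WT control 1, WT cold 1 or WT cold 2.

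The counts of the nutrient lists are to be read beside the 31.7% of all genes called lower. VIT1, for a transporter that moves iron into the vacuole, fell from 49.9, 81.4 and 56.4 to 10.8, 10.6 and 11.9 FPKM (log2 fold change -2.36 ± 0.18, adjusted p = 8.3e-08). NAS3, for nicotianamine synthase, whose product carries metals, fell from 6.68, 2.36 and 4.52 to 0.359, 0.509 and 0.371 FPKM (log2 fold change -1.89 ± 0.26, adjusted p = 3.67e-05). Of 5 tested iron genes 1 was higher and 2 lower, and 3 lower without WT control 2. Phosphate genes were 1 higher and 2 lower of 8, and 2 and 2 without WT control 2. The phosphate transporter gene PHT1-4 fell from 6.81, 10.3 and 6.47 to 0.544, 1.12 and 2.08 FPKM (log2 fold change -2.01 ± 0.31, adjusted p = 0.00011). PHT1-1 was higher at 38.6, 34.4 and 71.9 against 23.8, 20.8 and 12.2 FPKM, a call lost without WT control 3 (adjusted p = 0.113) or WT cold 3 (0.127). Of 4 potassium and sodium transport genes 2 were lower, both of them potassium uptake genes, HAK2 and AKT1. HAK2 fell from 8.37, 6.53 and 6.5 to 3.98, 3.89 and 3.52 FPKM, and AKT1 from 11.9, 5.996 and 7.34 to 4.09, 3.69 and 3.92 FPKM. Nitrogen genes were 3 higher and 1 lower of 8, and 1 higher and none lower without WT control 2. NAR2.1, the partner protein of nitrate transporters, was at 0, 0 and 0.0313 before and at 1.51, 2.47 and 2.07 FPKM after cold (adjusted p = 3.54e-07). AMT1-1, an ammonium transporter gene, had overlapping groups and a call at an adjusted p of 0.0497 that was lost without any WT library other than WT cold 3 (up to 0.252). MT2B, a metallothionein gene, stood at 384, 59.6 and 269.7 before and at 44.2, 76.9 and 51.0 FPKM after cold. Its groups overlapped through WT control 2, without which its log2 fold change went from -1.70 to -2.51, and its call was lost without WT control 1 or 3 or WT cold 1 (adjusted p up to 0.0973).

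The photosynthesis genes tested were mostly not called, but they were few. Of the light-harvesting pairs of name and locus ID written, 4 of 13 were tested. For Rubisco and its activase it was 1 of 5, and for photosystems and electron transport 3 of 7. CAB1R, an antenna gene whose protein binds chlorophyll, fell from 2419, 4643 and 3481 to 1043, 1399.6 and 1049 FPKM (log2 fold change -1.56 ± 0.35, adjusted p = 0.00205). The other 3 tested light-harvesting genes were not called, nor was RCA (adjusted p = 0.101). Neither the ferredoxin gene ADI1 (adjusted p = 0.919) nor PSAH of photosystem I (0.683) was called. Chlorophyll synthesis had 2 of 6 lower and none higher. CHLI, for a subunit of magnesium chelatase, stood at 170.1, 171 and 176 before and at 107, 123 and 82.2 FPKM after cold, a call (adjusted p = 0.0101) lost without WT cold 3 (0.0521) and under median-ratio scaling. PORB, for a reductase of the same pathway, lost its call (adjusted p = 0.0456) without any WT library other than WT control 1 (up to 0.15). Under median-ratio scaling this list had 1 higher and none lower. Of the breakdown genes, NOL rose from 19.0, 18.4 and 19.8 to 29.3, 27.9 and 26.2 FPKM (log2 fold change 0.52 ± 0.12, adjusted p = 0.00245). SGR, the stay-green gene, had overlapping groups, and its call (adjusted p = 0.0489) ended without WT control 2 or 3 or WT cold 2 or 3 (up to 0.191). Catalase genes, for the removal of hydrogen peroxide, were lower. CATB fell from 45.1, 35.0 and 41.1 to 18.7, 23.3 and 20.5 FPKM (log2 fold change -0.92 ± 0.15, adjusted p = 0.000204). CATA stood at 909.8, 380.1 and 660.4 before and at 229.7, 292 and 312 FPKM after cold, a call lost without WT control 1 (adjusted p = 0.0512). The other 6 scavenging genes were not called, and under median-ratio scaling 3 of them were higher, while 4 of the 8 were lower under quantile normalization.

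Clock genes are listed in full, since their levels follow the hour. LHY, which peaks around dawn, was at 29.8, 89.7 and 46.5 FPKM in the controls and at 102, 138 and 154 FPKM in the cold (log2 fold change 1.35 ± 0.38, adjusted p = 0.00921). The call was lost without WT control 1 (adjusted p = 0.0506). GI, of the evening, fell from 382, 441 and 363 to 196, 181 and 219.8 FPKM (log2 fold change -0.99 ± 0.13, adjusted p = 2.21e-05) and held with any 1 library left out. PRR1 was at 45.6, 99.0 and 52.5 before and at 34.0, 35.6 and 37.5 FPKM after cold. PRR37 was at 73.2, 107 and 74.4 before and at 57.6, 55.5 and 68.8 after. ELF3-1 was at 26.73, 30.6 and 30.4 before and at 21.1, 22.1 and 22.2 after. All 3 were lower with 3 controls (adjusted p = 0.0308, 0.014 and 0.0264) and not called without WT control 2 (0.161, 0.0722 and 0.0703). PRR1 also lost its call without WT cold 1, 2 or 3, PRR37 without WT cold 2, and ELF3-1 without WT control 3 or WT cold 1 or 2. All 3 calls were also lost under median-ratio scaling. PRR95, at 55.8, 236 and 99.8 before and 114, 125 and 97.3 after, and PRR73, at 234, 382 and 245 before and 215, 217 and 251 after, were not called (adjusted p = 0.969 and 0.171). In all of them but LHY, WT control 2 held the highest of the 6 values, and in LHY the highest of the controls. Whether that library was frozen at another hour was not tested. The flowering gene HD1, which follows the clock, was lower at 2.27, 1.53 and 2.36 against 4.22, 12.1 and 5.17 FPKM, a call lost without WT control 2 (adjusted p = 0.0553). Among photoreceptors, the phototropin gene PHOT1A fell from 38.2, 81.9 and 44.9 to 16.4, 21.1 and 34.9 FPKM (log2 fold change -1.14 ± 0.28, adjusted p = 0.00382).

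Cell wall genes are where WT control 2 decides the result. CESA4, CESA7 and CESA9 encode the cellulose synthases of the secondary wall, and BC1 a protein that gives the rice stem its strength. CESA4 stood at 65.9, 3.73 and 73.2 FPKM in the controls and at 28.3, 40.1 and 27.4 FPKM in the cold. CESA7 stood at 64.0, 3.5 and 118 before and at 35.6, 56.9 and 23.0 FPKM after, and CESA9 at 53.3, 3.07 and 57.1 before and at 18.2, 27.4 and 17.42 FPKM after. In each of these WT control 2 lay below all 3 cold libraries and, apart from it, the controls lay above them. With 3 controls none of the 4 was called (log2 fold change 0.18 ± 0.72 for CESA4, adjusted p = 0.854). Without WT control 2, CESA4 was lower by -1.12 (adjusted p = 0.00999), CESA9 by -1.38 (0.00526) and BC1 by -2.02 (0.000213), and CESA7 at -1.25 was not called (0.0537). BC1 was at 27.7, 2.24 and 30.7 before and at 6.09, 8.13 and 5.34 FPKM after. None of the 5 primary wall genes was called, although 2 were higher without WT control 3 and 1 without WT control 1. The primary wall genes CESA1 and CESA6 were not called in either fit (adjusted p = 0.173 and 0.0807 with WT control 2, 0.983 and 0.482 without it). Of the phenylpropanoid and lignin list 1 of 5 was higher and none lower, and without WT control 2 the counts were 1 and 2. CHI, for chalcone isomerase of flavonoid synthesis, stood at 356, 149 and 370.1 before and at 148, 212 and 177 FPKM after, and was called lower only without WT control 2, with library weights and under quantile normalization (values without WT control 2: log2 fold change -1.03, adjusted p = 0.000571).

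**Figure D4:**
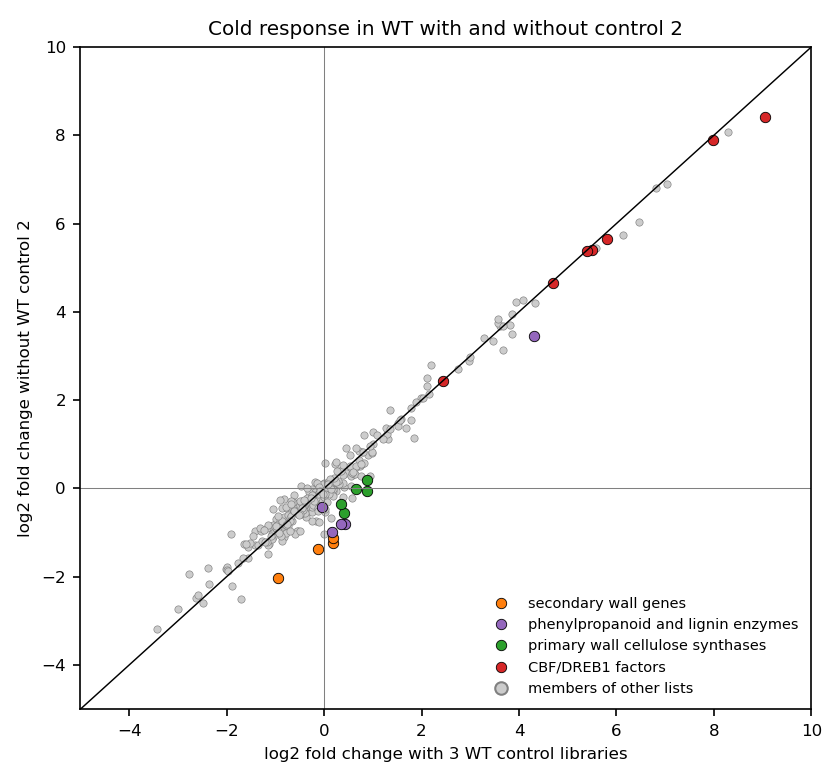
log2 fold change of WT cold against WT control for the 293 list members, with all 3 control libraries (x axis) and without WT control 2 (y axis). The diagonal marks equal values. Secondary wall, lignin and primary wall genes lie below it, and the CBF/DREB1 factors lie close to it.

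Defence genes were 1 higher, 1 lower and 4 not called of 6. CEBIP, for a receptor that binds chitin, rose from 31.6, 52.8 and 27.4 to 64.9, 74.0 and 80.5 FPKM (log2 fold change 1.01 ± 0.27, adjusted p = 0.00719). CERK1, for its partner kinase, fell from 28.3, 29.8 and 21.8 to 16.5, 15.5 and 18.9 FPKM (log2 fold change -0.61 ± 0.16, adjusted p = 0.00597), a call lost under median-ratio scaling. SIZ1, for a ligase of the small protein tag SUMO, fell from 26.3, 21.3 and 25.4 to 16.0, 15.9 and 18.4 FPKM, also lost under that scaling. ADH1, for the alcohol dehydrogenase of fermentation, was lower at 5.06, 6.88 and 7.01 against 12.5, 10.9 and 9.03 FPKM. That call was lost without WT control 1 (adjusted p = 0.0984) or WT cold 1 and under both scalings.

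Genes outside the checked names were among the strongest responders. Names for these locus IDs were not looked up, so they may be named elsewhere. Os01g0186900 stood at 0.336, 0.949 and 9.35 FPKM before cold and at 1561, 1491 and 1776 FPKM after it (log2 fold change 9.06 ± 0.75, adjusted p = 2.04e-07). Os09g0457900 went from 0, 0 and 1.74 to 421, 315 and 313 FPKM (log2 fold change 7.96 ± 0.43, adjusted p = 2.25e-09). In both, as in 6 of the 7 DREB1 genes, WT control 3 had the highest control value. Os12g0115100 fell from 481, 1895 and 1054 to 49.8, 30.5 and 40.6 FPKM (log2 fold change -4.61 ± 0.54, adjusted p = 7.7e-06), and Os07g0142100 from 253, 286 and 62.0 to 8.35, 6.65 and 6.83 FPKM (log2 fold change -4.33 ± 0.87, adjusted p = 0.000901). Of 1156 tested genes that the table numbers as new, 132 were higher and 257 lower, 33.7% in all, a smaller share than the 45.7% of all genes. The share called varied with expression level, and new genes were not compared with others of like level.

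Where the response of WT leaves stood apart from that of the transgenic lines was tested as a difference of cold responses, which shares the WT libraries between both tests. limma called 2402 genes for OX minus WT (10.4%; 7.25% above WT, 3.11% below) and 7073 for RNAi minus WT (30.5%). The OX count was 1078 without WT cold 1, 1255 without WT cold 2 and 1385 without OX cold 2. Single genes named below were chosen largely by their WT change, which the difference subtracts. The 7 CBF/DREB1 genes rose in all lines. None of the 7 passed the test of a difference in OX, and 2 of 7 differed in RNAi. These counts do not set the family apart from all genes tested, of which 10.4% differed in OX and 30.5% in RNAi. DREB1A rose by 7.98 in WT against 6.15 in RNAi, a difference of -1.83 ± 0.55 (adjusted p = 0.0203), and DREB1H by 5.81 against 4.11 (difference -1.70 ± 0.46, adjusted p = 0.013). Of the clade A PP2C genes, which only fell or were not called in WT, 4 of 7 differed in OX and 7 of 7 in RNAi. The OX difference of PP2C09 held in 4 of 12 fits that left out 1 library (adjusted p up to 0.0781). It was lost without WT control 2, while the OX difference of PP2C68 held in all 12. PP2C68 fell by 2.63 in WT, and its log2 fold change was 2.58 in OX and 4.13 in RNAi. The expansin genes differed in 4 of 6 for RNAi, and none of the 6 passed that test for OX. Among the 4, EXPA4 and EXPB4 lost the difference without WT control 2, and also without WT cold 1 or WT cold 2 and some RNAi libraries (adjusted p up to 0.0826 and 0.0814). EXPA2 changed by -3.43 in WT and by 0.55 in RNAi, a difference of 3.98 ± 0.91 (adjusted p = 0.00524). The log2 fold change of GI was -0.99 in WT, -0.39 in OX and 0.07 in RNAi, and its OX difference was lost without any WT or OX library other than WT cold 3 (adjusted p up to 0.118). WRKY76 rose by 3.87 in WT, and its log2 fold change in RNAi was 8.04 (difference 4.18 ± 0.66, adjusted p = 0.000644). ABA8OX1 and TIFY11A, whose log2 fold changes in WT were 8.30 and 7.04, had values of 7.88 and 7.22 in OX and 8.53 and 6.56 in RNAi, and neither passed the test of a difference.

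**Figure D5:**
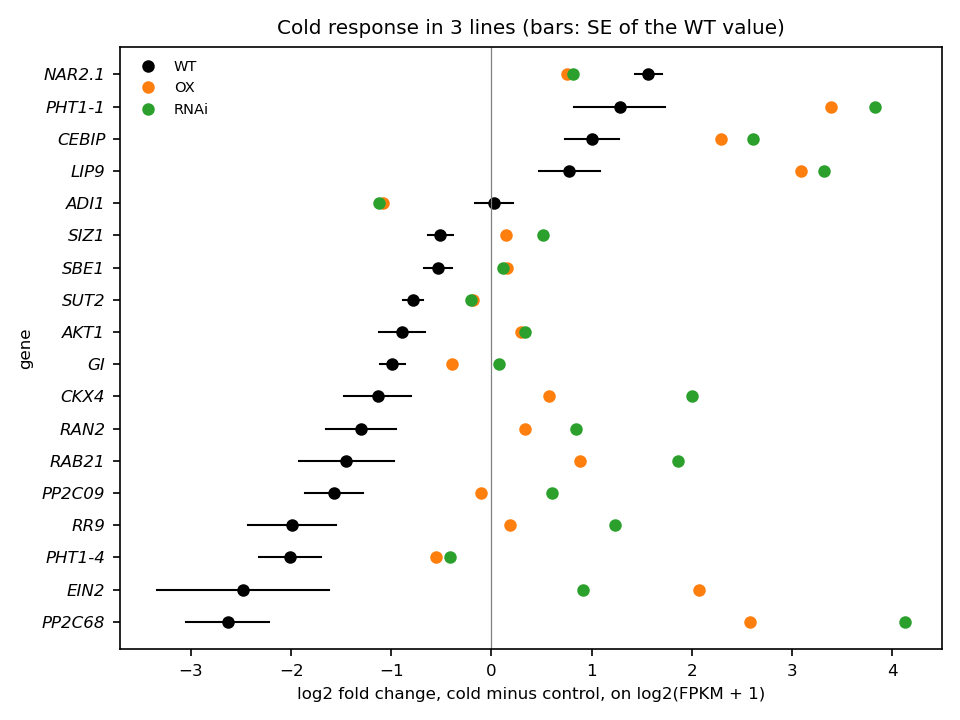
log2 fold change of cold against control in WT (black, with its SE), OX (orange) and RNAi (green) for the 18 genes with a checked name, chosen for naming, whose response differed from WT in both transgenic lines. PP2C68 lies at -2.63 in WT, 2.58 in OX and 4.13 in RNAi. Naming rested largely on the WT change, which the test of a difference also uses.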

How the data were processed

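RNA of leaves was taken with Trizol and made into Illumina TruSeq libraries, per the labels' protocols, and the authors deposited FPKM values for 18 libraries in 1 table. Per the submitters' processing notes, Bowtie 0.12.2 was used. Build, annotation, strandedness and the tool behind the FPKM are not stated by the sources used here, so reads of close relatives or overlapping genes may have been split in ways not known. The row of OsERF096 is not analysed here. FPKM keeps no total count, so no counting interval is given and the number of libraries limits the precision.

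Values were taken as log2(FPKM + 1), which understates the change of low genes, for 23175 genes with at least 1 FPKM in at least 3 of 18 libraries (15435 were left out). limma 3.58.1 in R 4.3.3 fitted 6 group means with a variance trend, and p-values were Benjamini-Hochberg adjusted over all genes tested. Groups came from the labels. In simulated data for the WT comparison, with 200 of 23175 genes changed, 64% of changes of 1 and 94% of changes of 2 on the log2 scale were recovered, with 10 false calls. Only genes with a mean above 2 on that scale were changed, and each gene had the same spread in every group. The simulation had no deviating library and far fewer changed genes than the 45.7% called here, so its rates need not hold for these data. Deviations of same-numbered WT control and cold libraries correlated at -0.01, -0.25 and -0.32, and those of differently numbered ones at -0.10 to 0.27. With 3 libraries a group, deviations from the group mean cannot decide whether the numbers pair the libraries. No pairing was used in the main fit.

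Members and lists were chosen with earlier results of these data known. Of the 59 lists with a tested member, 34 were written before the table was opened and 25 after it, before any comparison was run. Gene names are background knowledge, checked against the RefSeq gene table of assembly ASM3414082v1 by chromosome and by place along it: 348 of 457 pairs of name and locus ID passed and 293 were tested. Loci of 2 small heat shock proteins were corrected and 1 was dropped after the table was opened. Genes were named by rule among checked names: the 8 largest called changes per direction with groups that do not overlap and whose higher group averaged 5 FPKM or more, in each list the 2 called members that changed most (in lists without a call, the 2 nearest to one by adjusted p), and all CBF/DREB1, clock and secondary wall genes. To these came the 2 IDs without a checked name that rose most and the 2 that fell most. Alternatives covered the pseudocount, filters, scaling, weights, a replicate block, a minimum change and each library left out.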

Additional observations from a re-analysis of the deposited data

Results flagged for a closer look

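For 68 values the cold response differed between WT leaves and a transgenic line by limma's test of the difference itself (adjusted p under 0.05). Each is the log2 fold change of the line minus that of WT, so a positive value means that the line rose more or fell less. All share the 6 WT libraries, so they are not independent of each other. The genes were chosen for naming largely by the size of their WT change, which each difference subtracts. A gene picked for a large fall in WT therefore leans toward a positive difference, and one picked for a large rise toward a negative one.

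For OX against WT 20 of the 124 named genes were in this group, 18 of them positive. Over all genes tested, 10.4% differed, and 70% of those differences were positive. The positive differences were 5.21 for PP2C68, 4.55 for EIN2, 2.62 for Os12g0115100, 2.34 for RAB21, 2.31 for LIP9, 2.17 for RR9, 2.12 for PHT1-1 and 1.77 for ACS1. Others were 1.71 for CKX4, 1.64 for RAN2, 1.46 for PP2C09, 1.46 for PHT1-4, 1.29 for CEBIP, 1.19 for AKT1, 0.69 for SBE1 and 0.66 for SIZ1. They went on with 0.60 for GI and 0.60 for SUT2. The negative differences were -1.11 for ADI1 and -0.82 for NAR2.1. Of these 20, 4 kept their call with any 1 library left out, namely ACS1, LIP9, NAR2.1 and PP2C68. Without WT control 2, 10 kept it, and 15 did under quantile normalization.

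For RNAi against WT 48 of the 124 named genes were in this group, 38 of them positive. Over all genes tested, 30.5% differed, and 59.4% of those differences were positive. The positive differences were 6.76 for PP2C68, 4.18 for WRKY76, 3.98 for EXPA2, 3.77 for Os12g0115100, 3.48 for EXPA4, 3.395 for EIN2, 3.31 for RAB21 and 3.23 for RR9. Others were 3.14 for CKX4, 2.96 for EXPB4, 2.55 for PHT1-1, 2.54 for LIP9, 2.496 for MAPK5, 2.17 for PP2C09, 2.15 for RAN2 and 2.12 for PHOT1A. They went on with 1.99 for NAC3, 1.86 for PIP2-7, 1.82 for PRR95, 1.61 for CEBIP, 1.60 for PHT1-4, 1.58 for PRR1, 1.49 for CIPK23 and 1.42 for SGR. Lower in that order came 1.39 for MYB2, 1.26 for DREB2A, 1.23 for AKT1, 1.21 for VIT1, 1.20 for IAA6, 1.07 for HSFA3, 1.06 for GI and 1.02 for SAP1. The smallest were 1.02 for SIZ1, 0.80 for SAPK2, 0.76 for DREB2B, 0.65 for SBE1, 0.64 for CERK1 and 0.58 for SUT2. The negative differences were -1.83 for DREB1A, -1.70 for DREB1H, -1.59 for HSP24.1, -1.58 for HSP81-1, -1.39 for CHI, -1.31 for YUCCA1, -1.15 for ADI1, -0.90 for CHLI, -0.76 for NAR2.1 and -0.66 for TPT. Of these 48, 35 kept their call with any 1 library left out, 38 without WT control 2 and 47 under quantile normalization.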

How the results depend on the processing

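The 10595 calls in WT became 8614 to 9919 when 1 WT library was left out, with 2634 to 3214 higher and 5977 to 6914 lower. A test against a minimum log2 change of 1 left 1109 genes, 667 higher and 442 lower. Median-ratio scaling gave 5414 higher and 4858 lower, so that 52.7% of calls were higher, against 30.7% as reported and 45.2% under quantile normalization, which moved the median of all genes to -0.05. For OX minus WT the count of 2402 became 3628 with library weights, 1563 with only the groups compared, and 1078 to 2428 with 1 library left out. For RNAi minus WT the count of 7073 became 10806 with library weights and 5113 to 7072 with 1 library left out. Higher calls made up 70% of the OX differences (54.2% under quantile normalization, 59.6% under median-ratio scaling) and 59.4% of the RNAi differences (50% and 53.3%). Whether replicate numbers pair the libraries is not known. A replicate block gave 10222 calls in WT, 1928 for OX minus WT and 6527 for RNAi minus WT. CESA4 changed sign from 0.18 to -0.89 with library weights and to -1.12 without WT control 2, the lowest of -1.12 to 0.87 with 1 WT library left out; the cause was not tested. Among 124 named genes, 61 lost their call under the minimum change, 23 without WT control 2, and 17 under median-ratio scaling. With 3 libraries a group, small changes of low genes may have been missed.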
